A study of Mus musculus with 4 samples.

Results

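The forkhead (Fox) family of transcription factor genes was compared between salivary gland (SG) placodes derived from pluripotent stem cells (PSC) and mouse submandibular glands (SMGs) at E12.5. Members were taken by name, as every gene whose symbol was Fox followed by a single lower-case letter and a number. This gave 44 genes in 19 lettered subfamilies, on 16 chromosomes, out of 24771 features with an expression value (22036 Ensembl genes and 2735 loci assembled from the reads). The rule reads names only, although the family was taken up with earlier results of these data known. All 44 members were found by identifier in the GENCODE M21 annotation of GRCm38, from which their positions were taken.

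Total RNA of 4 samples was sequenced as paired-end reads, with 2 samples of placodes and 2 samples of SMGs. The placodes were aggregates of the mouse embryonic stem cell line 129w2, started from 3000 cells in each well and kept in 2% Matrigel, a basement membrane extract. They received 2 ng/ml BMP4 on day 3, 1 μM retinoic acid (RA) with 25 ng/ml bFGF on day 4 and 200 ng/ml FGF10 from day 6, and RNA was taken on day 10. The SMGs were the submandibular salivary glands of mouse embryos at E12.5, which received none of these agents. The 129w2 placodes came from a single line, and the strain of the embryos and the dissection of the glands are not given in the sources used here, so the share of mesenchyme, vessels, nerve and blood in the SMG samples is unknown. The labels do not say whether the samples of a group were separate cultures or separate litters, and the p-values below therefore measure only the spread between these samples, which may be technical.

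Fox proteins bind DNA through the forkhead box, a winged-helix domain that gives the family its name, and the letter of a member marks its place in the family tree. Some members, such as the Foxa factors, open closed chromatin and mark regional identity in the embryo, while others, such as the Foxk, Foxo and Foxp factors, act in most tissues on metabolism, stress responses and repression. In the head, Foxc and Foxf genes are known from mesenchyme and vessels, Foxe1 from the oral and thyroid primordia, and Foxa2, Foxb1 and Foxn4 from regions of the neural tube.

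The box itself is the sequence that the members share, and a stretch of 48 coding bases in it is shown for a selection of the members on which the results turn, since it carries the family resemblance and also bears on how reads were assigned. The stretch is centred on the 8-residue word that the largest number of members hold, whole in 23 of 44 members. Capitals mark the bases that differ from Foxc1. Sequences were read from the GRCm38 genome, 5′ to 3′ on the coding strand.
Foxc1: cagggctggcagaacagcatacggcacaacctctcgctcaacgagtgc
Foxc2: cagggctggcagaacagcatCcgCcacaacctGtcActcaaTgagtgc
Foxe1: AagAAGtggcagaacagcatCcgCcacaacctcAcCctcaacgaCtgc
Foxd3: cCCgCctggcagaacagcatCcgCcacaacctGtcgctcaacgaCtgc
Foxb1: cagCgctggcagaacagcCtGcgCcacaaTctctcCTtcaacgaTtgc
Foxk2: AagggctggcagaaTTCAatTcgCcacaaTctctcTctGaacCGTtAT
Foxp4: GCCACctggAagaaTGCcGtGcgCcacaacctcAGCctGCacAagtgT
Foxo4: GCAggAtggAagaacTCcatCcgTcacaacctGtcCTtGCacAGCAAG

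The Foxc1 stretch lies at chr13:31807565-31807612 on the plus strand and that of Foxc2 at chr8:121116951-121116998 on the plus strand, and they differ at 5 bases. Foxb1 (chr9:69760037-69760084, minus strand) differs from Foxc1 at 8 bases and Foxe1 (chr4:46344482-46344529, plus strand) at 9. In Foxk2 and Foxo4, with 15 and 20 differing bases, an intron splits the stretch, as it does in Foxp4, with 19. The longest run of identical bases in a pair of members had a median of 13 bases over 946 pairs, and 2 pairs shared runs of 50 bases or more. These were Foxd3 with Foxd4 (68 bases) and Foxc1 with Foxc2 (53 bases). Whether the runs lay wholly within coding sequence was not tested. The stretch of Foxd4 (chr19:24900355-24900402, minus strand) has the same letters as that of Foxd3 (chr4:99657141-99657188, plus strand). A read pair lying wholly within it could be placed in either gene, and the same holds for the run that Foxc1 and Foxc2 share. Pairs that reach past a shared run could tell the genes apart.

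Expression was given as FPKM, the mapped fragments of a gene divided by its transcript length and by the sample's total of mapped fragments, so that FPKM values of different genes are on a per-length scale. Depth was estimated from genes with 1 annotated transcript, in which low values fell on regular steps. If a step is 1 read pair, SMG sample 2 was sequenced 1.202 times as deep as SMG sample 1, the placode samples lay 1.02 and 1.04 times above it, and an FPKM of 1 in a transcript of 2000 bases stood for about 32.1 to 38.5 fragments. Replicates were close, with Pearson's r across features of 0.994 (placodes) and 0.992 (SMGs). Markers of the cell types that the samples could hold were chosen with earlier results of these data known, and many were far apart between the groups. All 8 tested neural progenitor markers of 10 were higher in the placodes, where their FPKM values summed to 786 and 818, against 66.2 and 61.8 in the SMGs, and all 10 gland mesenchyme markers were lower, with sums of 228 and 218 against 2169 and 2132. Of 17 tested salivary epithelium markers, 11 were lower and 3 higher in the placodes. The higher ones were Sox9, a factor of early gland epithelium that neural progenitors also express, at 42.1 and 43.0 FPKM against 9.31 and 7.66, Krt19, a keratin of ducts, at 14.7 and 15.8 against 9.78 and 6.53, and the FGF receptor Fgfr2, at 37.5 and 35.5 against 26.0 and 26.8. Krt5, Krt14 and Krt15, keratins of basal epithelium, were listed at 0 in both placode samples. All tested endothelial (10), erythroid (6), myeloid (6) and skeletal muscle (6) markers were lower in the placodes. Salivary gland placode is used here as the study's name for these aggregates.

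Many members were silent or weak. An FPKM of at least 1 in both samples was reached by 21 of 44 members in the placodes and by 19 in the SMGs, and 18 of these were the same genes. Foxb2, Foxe3, Foxi1, Foxi2 and Foxr1 were listed at 0 in all 4 samples, and another 13 members stayed below 1 in every sample, which makes 18 of 44. Summed over the family, FPKM came to 213 and 216 in the placodes and to 240 and 233 in the SMGs. The 5 most abundant members held 58.2 to 59.3% of that sum in the placodes and 53.5% in the SMGs.

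**Figure D1:**
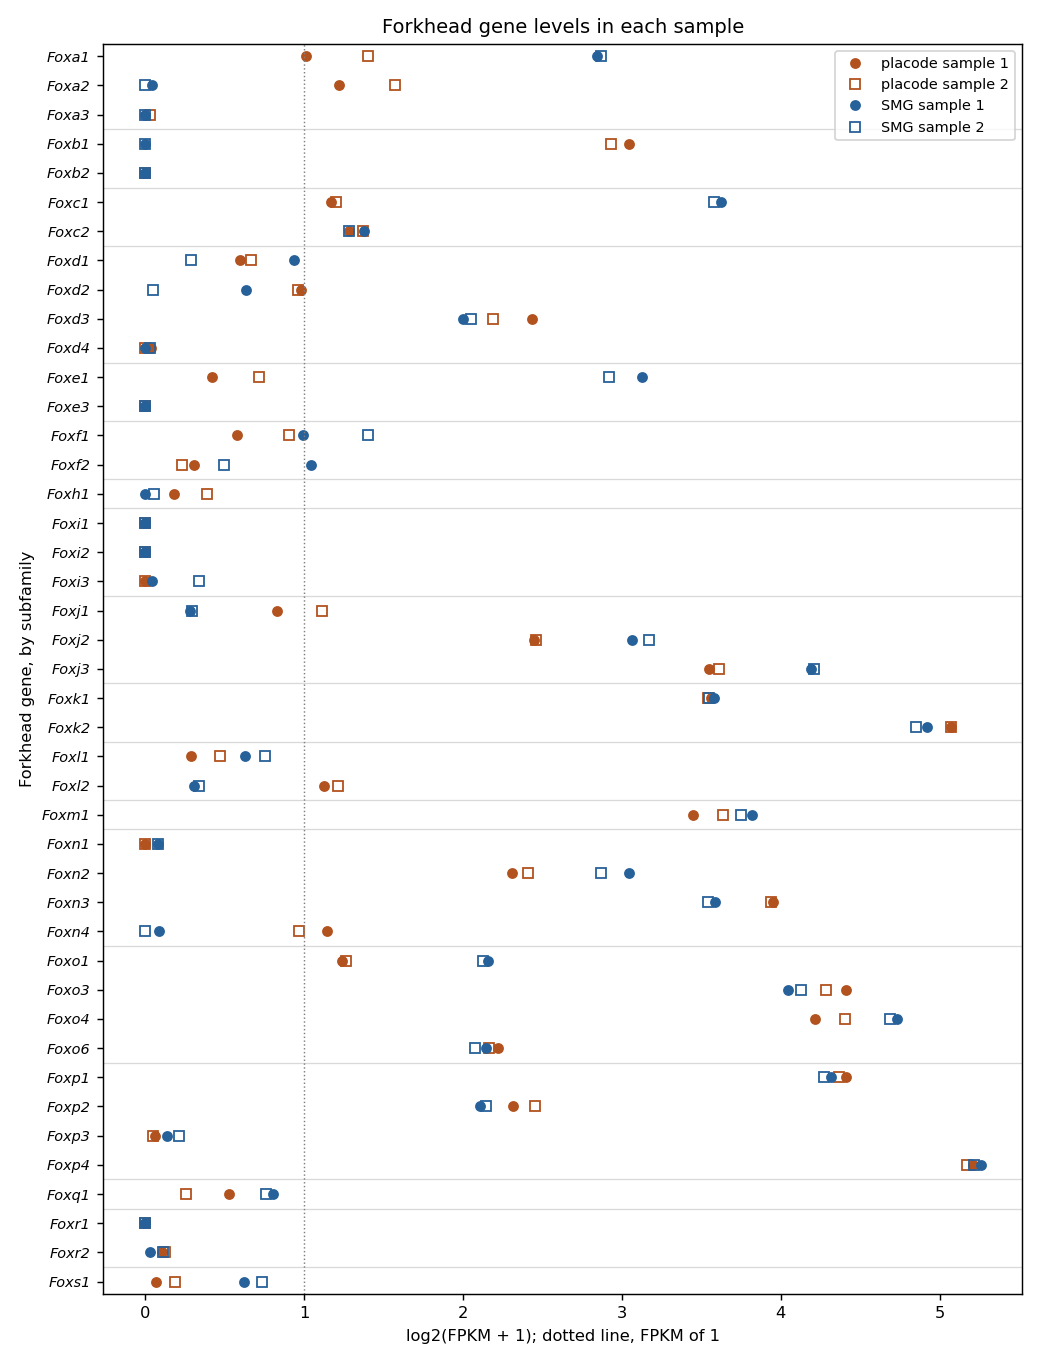
Expression of 43 of the 44 Fox genes in each sample, ordered by subfamily, as log2(FPKM + 1). Orange marks are placodes and blue marks SMGs, filled circles are sample 1 and open squares sample 2 of a group, and the dotted line marks an FPKM of 1, which 18 members reached in all 4 samples.

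For the comparison of the groups, limma was fitted to log2(FPKM + 1) of the 13193 features with a mean FPKM of at least 1, and a gene was called different at a Benjamini-Hochberg adjusted p below 0.05. Of the 44 members, 21 could be tested, and 13 of them were called: 4 were higher in the placodes and 9 lower. This was 61.9% of the tested members, beside 76.2% of all tested features, of which 35.7% were called higher and 40.4% lower. A difference of at least 1 on the log2(FPKM + 1) scale is termed 2-fold below. It was seen for 1 higher member (Foxb1) and 3 lower members (Foxe1, Foxc1 and Foxa1). Over all features the shares were 14.1% higher and 15.2% lower (29.4% in either direction). This scale understates ratios of low genes: Foxo1, at -0.89, was lower by a 2.48-fold ratio of FPKM. The median log2 difference of the tested members was -0.05, the same as for all tested features, and the median absolute difference was 0.38, against 0.55 for all features. In 19 of the 21 the samples of the groups did not overlap, as in 88.4% of all features. With 2 samples against 2, an exact permutation test of a single gene cannot go below p = 0.333. The balance of directions depended on the scaling: with FPKM rescaled to an equal sum per sample (TPM), or with median-ratio scaling, 7 members were higher and 8 lower. Without placode sample 1 only 2 were higher, since the calls of Foxk2 and Foxo3 were lost.

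**Figure D2:**
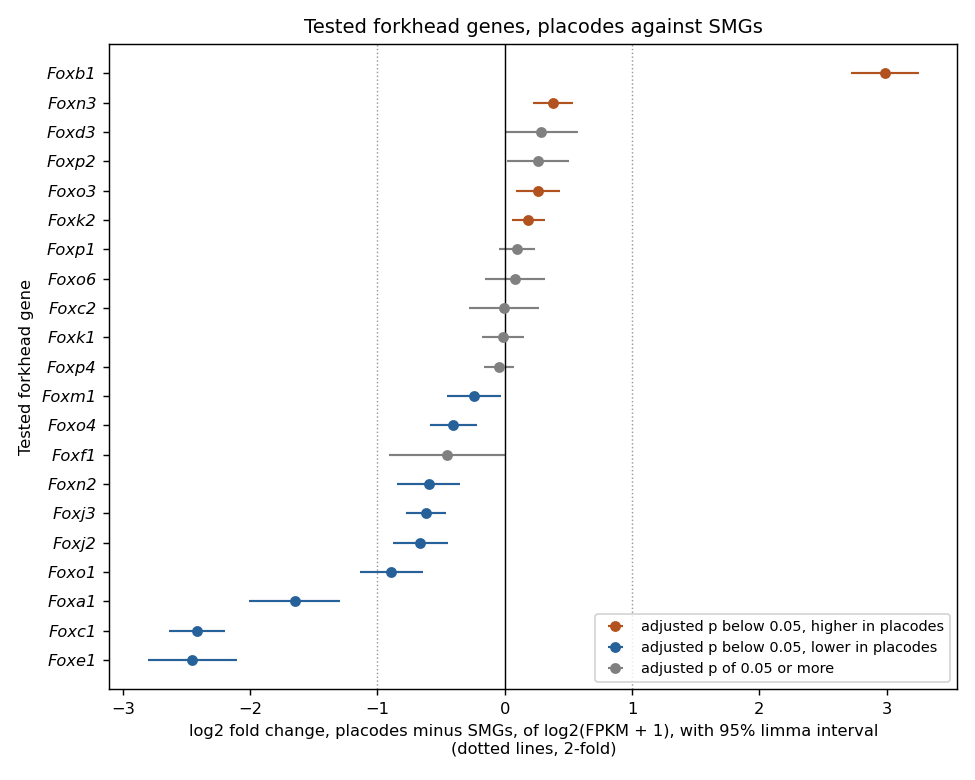
Difference between placodes and SMGs for the 21 tested Fox genes, as the difference of mean log2(FPKM + 1) with limma's 95% confidence interval. Foxb1 stands apart at 2.99, and Foxe1, Foxc1 and Foxa1 lie below -1. The other 17 members lie between the dotted lines, which mark a difference of 1 on the log2(FPKM + 1) scale in either direction.

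Foxc1, a factor of paraxial mesoderm, neural crest-derived mesenchyme and vessels, was among the members that set the groups apart. Its FPKM was 1.25 and 1.30 in the placodes and 11.3 and 11.0 in the SMGs. All placode values were far below all SMG values. The mean was 1.28 ± 0.0366 against 11.1 ± 0.240 (SD, n = 2), an 8.73-fold ratio of FPKM, and Foxc1 fell by 2.42 on the log2(FPKM + 1) scale in the placodes (SE 0.09, limma adjusted p = 2.44e-06). Foxc2, its closest relative, did not show this. The FPKM of Foxc2 was 1.43 and 1.59 in the placodes and 1.60 and 1.43 in the SMGs, so that the groups overlapped. The difference was -0.0031, with a 95% interval of -0.28 to 0.27 (adjusted p = 0.981), and its sign turned with the scaling. The interval leaves out a change of the size seen for Foxc1. How reads from the run of 53 bases that the 2 genes share were assigned was not tested.

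Foxe1, known from the thyroid primordium and the palate, was the member with the largest fall. It was listed at 0.338 and 0.643 FPKM in the placodes and at 7.72 and 6.57 in the SMGs, with no overlap. The mean was 0.491 ± 0.215 in the placodes and 7.14 ± 0.811 in the SMGs (SD, n = 2), a 14.6-fold ratio, and the gene fell by 2.45 on the log2 scale (SE 0.14, limma adjusted p = 1.52e-05). Foxe1 reached the mean FPKM of 1 needed for the test only through the SMGs, so its p-value is no support beyond these values. Its placode values stand for about 15 and 30 fragments, and those of the SMGs for about 347 and 355. Foxe1 shares exon bases with Gm12446 on the other strand. Since the strandedness of the libraries is not given, reads lying within the shared bases cannot be told apart. The length of the overlap is not given here. The other member of the subfamily, Foxe3, a lens factor, was listed at 0 throughout.

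The Foxa factors, which open chromatin in endoderm and in the floor plate of the neural tube, moved in opposite directions. Foxa1 was at 1.02 and 1.64 FPKM in the placodes and 6.19 and 6.31 in the SMGs, all placode values being lower. Its mean was 1.33 ± 0.440 against 6.25 ± 0.0846 (SD, n = 2), and it fell by 1.65 on the log2 scale (SE 0.15, limma adjusted p = 9.76e-05). Foxa2 showed the reverse, with 1.32 and 1.98 FPKM in the placodes against 0.0296 and 0 in the SMGs. The mean of Foxa2 over all samples was below 1, so it entered only the fit without a minimum, in which it was 1.37 higher on the log2 scale (adjusted p = 0.00179); in that fit 58.1% of all features were called. The remaining Foxa gene, Foxa3, known from liver, had 0.0217 FPKM in placode sample 2, about 1 fragment, and was listed at 0 elsewhere. The sum of the 3 genes was 2.34 and 3.64 FPKM in the placodes and 6.22 and 6.31 in the SMGs, so the sum alone does not show that Foxa2 made up most of it in the placodes.

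Because Foxa1 and Foxc1 fell and Foxa2 did not, a promoter of each of these 3 genes is shown, from 250 bases before to 50 bases after the transcription start (RefSeq, GRCm38.p6). Capitals mark the motifs searched on both strands: TGTTTAC, a core forkhead motif, GACCACCCA, a motif of the Gli factors of Hedgehog signalling, TATAAA and CCAAT.
Foxa1: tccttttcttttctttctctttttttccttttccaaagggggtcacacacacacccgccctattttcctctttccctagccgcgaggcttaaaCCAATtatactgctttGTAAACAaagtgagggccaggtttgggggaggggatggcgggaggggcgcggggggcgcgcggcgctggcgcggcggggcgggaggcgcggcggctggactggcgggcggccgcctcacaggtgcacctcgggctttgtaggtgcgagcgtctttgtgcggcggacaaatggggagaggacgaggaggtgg
Foxa2: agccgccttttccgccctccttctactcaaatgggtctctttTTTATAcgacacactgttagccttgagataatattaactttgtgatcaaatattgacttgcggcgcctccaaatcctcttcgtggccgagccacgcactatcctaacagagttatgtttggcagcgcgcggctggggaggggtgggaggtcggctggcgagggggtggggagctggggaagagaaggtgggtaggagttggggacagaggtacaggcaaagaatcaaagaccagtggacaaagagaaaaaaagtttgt
Foxc1: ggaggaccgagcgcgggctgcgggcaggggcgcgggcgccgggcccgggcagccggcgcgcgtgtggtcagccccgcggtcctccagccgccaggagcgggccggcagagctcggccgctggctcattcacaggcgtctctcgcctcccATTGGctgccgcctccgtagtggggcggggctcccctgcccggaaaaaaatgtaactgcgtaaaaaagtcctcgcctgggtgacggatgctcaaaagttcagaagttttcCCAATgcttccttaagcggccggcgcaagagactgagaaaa

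These lie at chr12:57546062-57546361 (minus strand) for Foxa1, chr2:148045415-148045714 (minus strand) for Foxa2 and chr13:31806396-31806695 (plus strand) for Foxc1. For Foxa2 the table held 3 promoters, and the one shown is the only one of them with TATAAA. In all, the table held 33 promoters of 28 members, without Foxb1 and Foxe1. TGTTTAC was found in 1 of the 33, that of Foxa1, where it reads GTAAACA on the strand shown, or 3.03%, against 3.65% of all 32851 promoters. GACCACCCA was found in none, against 0.253% of all promoters. TATAAA was found in the promoters of Foxa2, Foxa3 and Foxp3, or 9.09% against 13.6%, and CCAAT in 15 promoters, among them those shown of Foxa1 and Foxc1 and another promoter of Foxa2, or 45.5% against 37.4%. A median of 22 CpG sites was counted per Fox promoter and 7 per promoter in all, with a median GC content of 62.7% and 52.7%. These counts describe the letters of the window.

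Foxb1, a gene of the embryonic diencephalon, hindbrain and spinal cord, was the member with the clearest gain. It was listed at 7.26 and 6.62 FPKM in the placodes, about 354 and 330 fragments, and at 0 in both SMG samples. The difference of 2.99 on the log2(FPKM + 1) scale (SE 0.11, limma adjusted p = 2.19e-06) depends on the pseudocount of 1, and no fold is given against a group at 0. Foxb1 reached the mean FPKM of 1 needed for the test only through the placodes, so its p-value is no support beyond these values. Exon bases of Foxb1 overlap B230323A14Rik on the opposite strand. Foxb2 was at 0 in every sample, so that only 1 of the 2 Foxb genes was expressed.

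Several weak members were also higher in the placodes in the fit without a minimum. Foxn4, which acts in retinal progenitors and V2 interneurons of the spinal cord, was at 1.21 and 0.955 FPKM against 0.0625 and 0 in the SMGs, a log2 difference of 1.01 (adjusted p = 0.00135). Foxl2, a factor of the ovary and the eyelid, was at 1.18 and 1.32 against 0.238 and 0.264 (0.85, adjusted p = 0.00156). Foxj1, the regulator of motile cilia, was at 0.776 and 1.16 against 0.214 and 0.224 (0.68, adjusted p = 0.0091). For each of these 3 genes the lower placode value was above the higher SMG value. The groups also did not overlap in 88.4% of all tested features, and in the fit without a minimum 58.1% of all features were called. Foxl2 shares exon bases with Foxl2os on the opposite strand.

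Beside these genes, all 10 neuron markers were higher in the placodes, with Snap25, a protein of synaptic vesicle fusion, at 42.6 and 44.4 FPKM against 1.70 and 1.45, as were the neural progenitor markers, with Hes5 at 122 and 124 against 0.0343 and 0.193. Whether the levels of Foxb1, Foxa2 and Foxn4 followed the amount of neural cells was not tested, and in bulk RNA a change in the number of cells of a type cannot be told apart from a change in the RNA per cell. In the same way, 10 of 10 gland mesenchyme markers moved with Foxc1, and Fgf10, a mesenchymal ligand, was at 0.465 and 0.123 FPKM in the placodes against 45.5 and 46.1 in the SMGs. The part of mesenchyme and vessels in the level of Foxc1, and that of epithelium in the levels of Foxa1 and Foxe1, was not tested.

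The Foxd genes were mixed. Foxd3, a factor of neural crest and of pluripotent cells, was at 4.40 and 3.56 FPKM in the placodes and 2.99 and 3.15 in the SMGs. The groups did not overlap, but the placode samples were far apart and the difference of 0.29 (SE 0.12) did not pass the test (adjusted p = 0.0640); it passed with rescaling to TPM (adjusted p = 0.0383). Exon bases of Foxd3 overlap Gm23366. Foxd1, known from kidney stroma and retina, was spread widely between the SMG samples, with 0.515 and 0.585 FPKM in the placodes and 0.910 and 0.224 in the SMGs. Foxd2 was at 0.972 and 0.952 in the placodes and 0.549 and 0.0361 in the SMGs, the latter about 23 and 2 fragments. Foxd4 was represented by about 1 fragment in each of 2 samples.

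Foxf1 and Foxf2, Hedgehog-responsive genes of gut, lung and palate mesenchyme, were low throughout. Foxf1 was at 0.492 and 0.876 FPKM in the placodes and 0.994 and 1.64 in the SMGs, and its difference of -0.46 (SE 0.19) did not pass the test (limma adjusted p = 0.0646). Foxf2 was at 0.236 and 0.174 against 1.06 and 0.413. For each, all placode values lay below all SMG values, but the spread within the SMGs was wide, and it ran in opposite directions for the 2 genes. Their sum was 0.727 and 1.05 FPKM in the placodes and 2.05 in both SMG samples. Both share exon bases with another annotated gene on the opposite strand.

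The remaining tissue-restricted members were weak. Foxq1 was at 0.440 and 0.193 FPKM in the placodes and 0.745 and 0.695 in the SMGs (-0.39, adjusted p = 0.0453 without a minimum). Foxs1, known from pericytes and smooth muscle of vessels, was at 0.0469 and 0.138 against 0.540 and 0.664 (-0.55, adjusted p = 0.00571). Of 5 tested pericyte markers, 4 were lower and 1 higher in the placodes: Abcc9 had the largest fall, at 0.0682 and 0.0606 FPKM against 6.59 and 6.82, and Notch3 was higher, at 26.9 and 27.8 against 21.2 and 21.3. Foxl1, a gene of gut mesenchyme, was at 0.221 and 0.389 against 0.545 and 0.690 (adjusted p = 0.0603 without a minimum). Foxh1, the partner of Smad proteins in Nodal signalling, was at 0.135 and 0.307 in the placodes and 0 and 0.0383 in the SMGs. Foxi3, a gene of placodal ectoderm, was at 0 in both placode samples and at 0.0287 and 0.264 in the SMGs. The thymic factor Foxn1 was at 0 in both placode samples and about 3 fragments in each SMG sample, and Foxp3, of regulatory T cells, lay between 0.0336 and 0.161 in all samples. Foxr2 lay between 0.0196 and 0.0895.

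The Foxp genes, repressors that pair with one another, formed the most abundant subfamily, at 28.2 and 27.4% of the summed family FPKM in the placodes and 24.9% in both SMG samples. Their sum was 60.2 and 59.3 FPKM in the placodes and 59.6 and 58.1 in the SMGs, with overlap. Foxp4 had the highest level of any member in each sample, at 36.0 and 35.1 FPKM in the placodes and 37.3 and 36.2 in the SMGs. Its difference was -0.05 with an interval of -0.17 to 0.07 (adjusted p = 0.421), a value whose sign turned with TPM and median-ratio scaling. Foxp1 was at 20.2 and 19.6 against 18.9 and 18.3 (0.10, adjusted p = 0.167), and Foxp2, known from neurons and lung epithelium, at 3.98 and 4.49 against 3.32 and 3.41 (0.26, adjusted p = 0.0524). Neither passed the test as FPKM, and both passed after rescaling to TPM (adjusted p = 0.0457 and 0.0319). None of the 3 genes reached 2-fold, and their intervals lay between -0.17 and 0.51.

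The Foxk genes, repressors of autophagy genes that also act on glucose metabolism, were nearly level. Foxk2 was at 32.6 and 32.7 FPKM in the placodes and 29.3 and 27.9 in the SMGs. The placode values were the higher ones, and the difference of 0.19 (SE 0.05) passed the test (limma adjusted p = 0.0175), but not when either placode sample or SMG sample 2 was left out (0.0637 to 0.0801). Foxk1 was at 10.8 and 10.6 against 11.0 and 10.7, a difference of -0.01 with an interval of -0.18 to 0.15 (adjusted p = 0.863), whose sign turned with the scaling.

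The Foxo genes, which the PI3K-Akt pathway sends out of the nucleus, went in both directions. Foxo1 was at 1.36 and 1.40 FPKM in the placodes and 3.47 and 3.36 in the SMGs, a 2.48-fold ratio of FPKM, and fell by 0.89 on the log2 scale (SE 0.10, limma adjusted p = 0.0003). Foxo4 was at 17.5 and 20.1 against 25.6 and 24.8 and fell by 0.40 (adjusted p = 0.00328). Foxo3 went the other way, from 15.5 and 16.5 in the SMGs to 20.2 and 18.5 in the placodes. Its difference was 0.26 (SE 0.07, adjusted p = 0.0150), and it no longer passed without placode sample 1 (0.102) or without SMG sample 1 (0.0942). Foxo6, a brain-enriched member, was at 3.66 and 3.48 against 3.43 and 3.22 (0.08, interval -0.16 to 0.31, adjusted p = 0.482). Foxo1 shares exon bases with Gm20402 on the other strand. The sum of the subfamily was 42.8 and 43.5 FPKM in the placodes and 48.0 and 47.9 in the SMGs, without overlap.

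Foxj2 and Foxj3, broadly expressed activators, were lower in the placodes. Foxj2 was at 4.45 and 4.49 FPKM against 7.35 and 7.98 in the SMGs and fell by 0.66 (SE 0.09, limma adjusted p = 0.000603). Foxj3 was at 10.7 and 11.2 against 17.2 and 17.5 and fell by 0.62 (SE 0.06, adjusted p = 0.000192). Both had tight replicates and no overlap. With Foxj1 higher in the placodes, the members of this letter did not move together, and the weak Foxj1 left little trace in the Foxj sum of 15.9 and 16.9 against 24.8 and 25.7 FPKM.

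Foxn2 and Foxn3 also went in opposite directions. Foxn2 was at 3.96 and 4.31 FPKM in the placodes and 7.24 and 6.30 in the SMGs and fell by 0.60 (SE 0.10, limma adjusted p = 0.00202). Foxn3, a repressor known from the DNA damage checkpoint, was at 14.4 and 14.3 against 11.0 and 10.6 and was 0.38 higher (SE 0.06, adjusted p = 0.00196). Neither overlapped between groups, and the sum of the Foxn genes hid the exchange, at 19.6 in both placode samples against 18.4 and 17.0.

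Foxm1, the activator of genes for mitosis, was at 9.89 and 11.4 FPKM in the placodes and 13.1 and 12.45 in the SMGs. The groups were close but did not overlap, and Foxm1 fell by 0.24 (SE 0.09, limma adjusted p = 0.0410). The call was lost with TPM, median-ratio scaling, no minimum, no trend in the variance, and without placode sample 1 or either SMG sample, with adjusted p from 0.0553 to 0.197. Foxm1 shares exon bases with Tex52 and Gm44596.

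**Figure D3:**
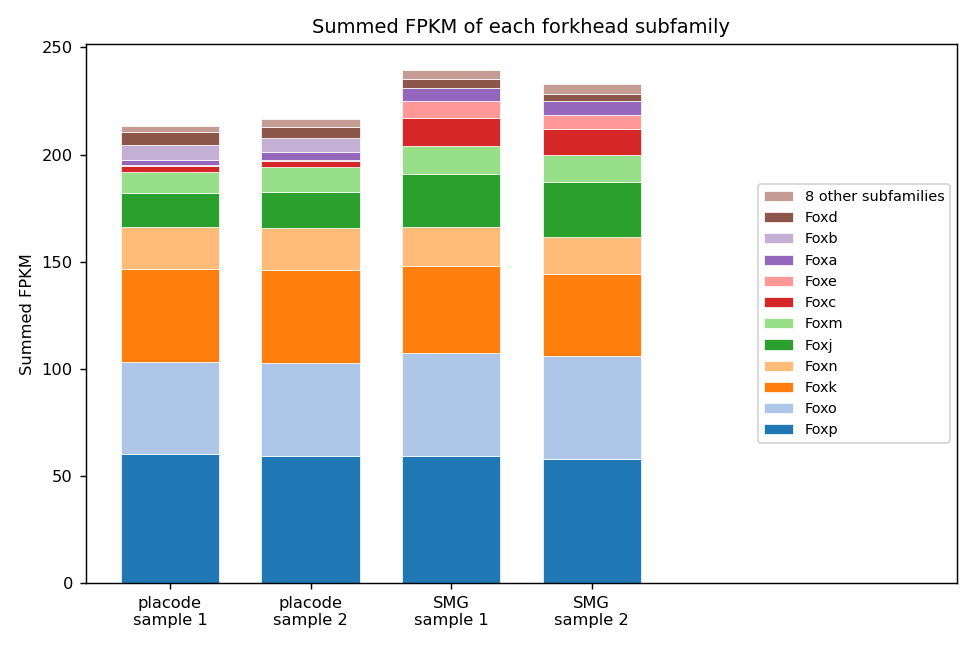
Summed FPKM of the Fox subfamilies in each sample, stacked, with the 8 weakest subfamilies combined. The Foxp, Foxo and Foxk blocks make up most of every bar, and the Foxc, Foxe, Foxa and Foxj blocks are taller in the SMG samples.

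Genes known to act with individual members were examined as lists, whose counts stand beside the 35.7% of all tested features that were called higher and the 40.4% called lower. Of 18 G2/M genes of the Foxm1 program, 16 were lower in the placodes and 1 higher, with a median log2 difference of -0.71, beside -0.05 for all tested features. Top2a, a DNA topoisomerase of dividing cells, was at 43.4 and 45.8 FPKM against 70.4 and 73.6 in the SMGs, and Cdk1, the mitotic kinase, fell by 1.25 (adjusted p = 9.68e-06). The exception was Cdc25b, a phosphatase that activates Cdk1, at 51.5 and 51.8 against 11.0 and 11.3. The difference of Foxm1 itself was -0.24.

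Of 16 tested Foxo target genes, 9 were higher and 5 lower in the placodes, with a median of 0.65. Bnip3, a mitophagy receptor that is also induced by hypoxia, was at 440 and 418 FPKM against 23.6 and 20.3, and Klf2, a factor of endothelium under flow, at 0.298 and 0.263 against 4.74 and 5.94. Of 16 PI3K-Akt regulators of Foxo, 9 were higher and 5 lower, with a median of 0.23. Sgk1, a kinase related to Akt, was at 2.57 and 2.93 against 12.2 and 12.8. Ywhae, a 14-3-3 protein of the family that holds Foxo in the cytoplasm, was the most abundant gene of the list and 0.24 higher (adjusted p = 0.00668). Of 13 tested partner genes of Foxp and Foxk, 5 were higher and 5 lower, shares close to those of all features, with a median of 0.02, and Satb1, a chromatin organizer, was the highest (1.36).

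For Foxa2, floor plate and endoderm genes were set side by side. Of 9 tested floor plate genes, 6 were higher in the placodes and 2 lower, with a median of 1.86. All 8 tested neural progenitor markers were also higher there, and the part of floor plate in the levels of this list was not tested. Slit1, an axon guidance ligand, was at 23.2 FPKM in both placode samples against 0.456 and 0.247, while Corin, a protease, was at 0.287 and 0.522 against 12.9 and 16.5. Nkx2-2 and Nkx2-9, transcription factors of the ventral neural tube, were at 0 in the SMGs and between 0.0959 and 0.185 in the placodes, and Shh, the ligand that the floor plate secretes, named here after its values were seen, was at 2.59 and 2.92 against 0 and 0.0735. Of 5 tested endoderm genes, 4 were lower and 1 higher, with a median of -2.13. The higher one was Prom1, which is not specific to endoderm, at 22.3 and 25.0 against 14.9 and 14.1. The lower ones are not all specific to endoderm either. Sox17, at 0.318 and 0.254 against 4.67 and 4.55, is also among the 10 endothelial markers, all lower in the placodes. The part of endoderm, vessels or mesenchyme in the levels of this list was not tested. Gata6 was at 0.904 and 0.994 against 15.9 and 17.3, and Ttr and Hnf4a stayed between 0.0668 and 0.140 in the placodes and at 0 in the SMGs.

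For Foxn4, 3 of 7 tested genes of V2 interneurons were higher and 3 lower, with a median of -0.31. Bhlhe22, a factor of several neuron types, was at 52.4 and 50.6 FPKM against 1.30 and 1.44, and Dll4, a Notch ligand that endothelium also uses, fell by 1.03 (adjusted p = 0.000421). The more restricted Lhx3, Lhx4, Vsx1 and Sox14 were at 0 in the SMGs and reached 1.80 FPKM at most in the placodes, for Lhx3. For Foxj1, 8 of 24 motile cilium genes with a value could be tested, of which 3 were higher and 4 lower, with a median of -0.55. Mcidas and Gmnc, the switches of multiciliated cells, and Pifo were listed at 0 in all samples. Tppp3, a tubulin-binding protein also found in neurons, was at 42.3 and 46.1 against 7.55 and 4.43, and Tekt2, a protein of ciliary microtubules, at 0.182 and 0.152 against 7.59 and 7.98.

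For Foxd3, 9 of 10 tested neural crest genes were lower in the placodes and 1 higher, with a median of -1.78. Pax3, which is also a gene of the dorsal neural tube, was at 20.3 and 20.5 FPKM against 0.306 and 0.473, and Snai2 at 1.33 and 2.34 against 24.1 and 24.5. Of 17 tested facial mesenchyme factors known beside the Foxf and Foxc genes, 14 were lower and 3 higher, with a median of -2.63. Barx1 was at 0.862 and 0.807 against 219 and 229, and Ptch1, the Hedgehog receptor and target, at 29.0 and 32.7 against 5.51 and 5.59. Of a list of forebrain genes, 4 could be tested, with Emx2 higher (1.84), Dlx2 and Dlx5 lower, and Nr2f1 level at 96.0 and 96.9 against 95.6 and 94.4, for a median of -1.23. Emx1 and Hesx1 were at 0 in all samples.

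**Figure D4:**
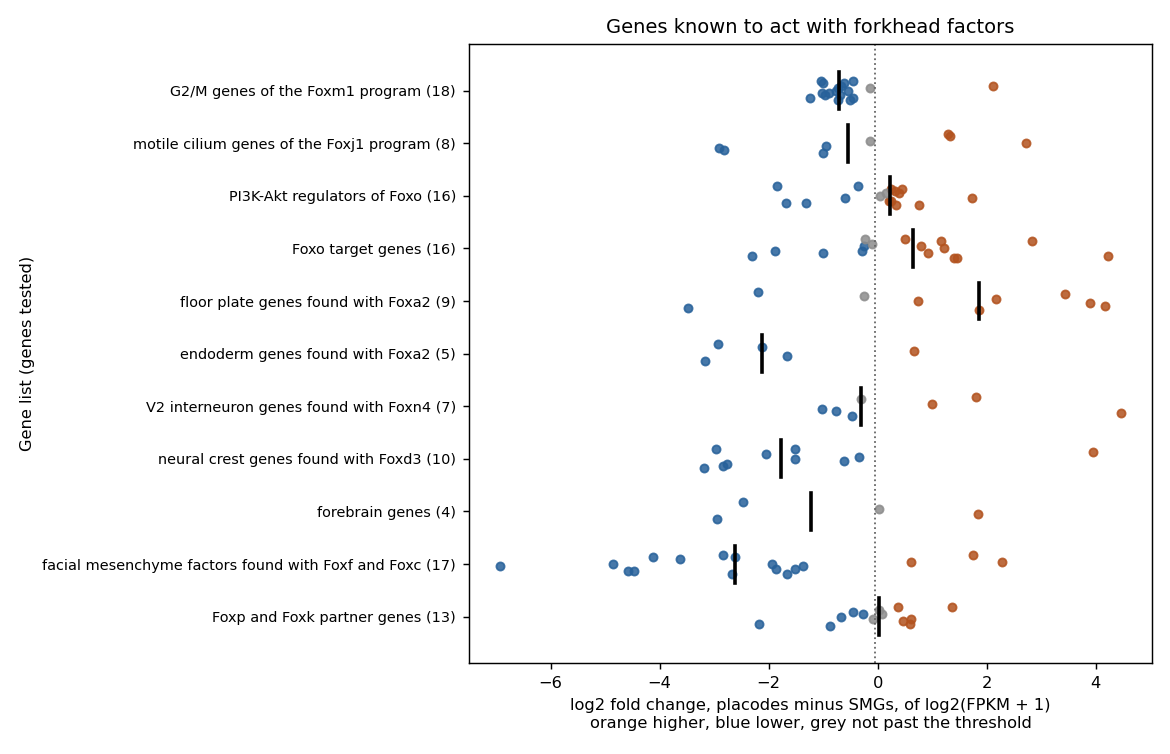
Differences of log2(FPKM + 1) between placodes and SMGs for the tested genes of each list (points, with the number tested in parentheses). The black bar is the median of the list, from -2.63 for facial mesenchyme factors to 1.86 for floor plate genes, and the dotted line is the median of all tested features.

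Neighbouring members in the genome did not all move alike. With 200 kb as the largest gap, 3 clusters held 8 members. On chromosome 13, Foxq1 (chr13:31556134-31560976), Foxf2 (chr13:31625816-31631403) and Foxc1 (chr13:31806633-31812476) all had placode values below their SMG values, but Foxq1 and Foxf2 reached no more than 0.745 and 1.06 FPKM. On chromosome 8, Foxf1 (chr8:121084386-121088144), Foxc2 (chr8:121116171-121118895) and Foxl1 (chr8:121127940-121130644) lay within a short interval. Foxf1 and Foxl1 had placode values below their SMG values, without passing the test, and Foxc2 between them overlapped. On chromosome 4, Foxd2 was expressed and Foxe3, 16273 bases away, was at 0.

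Exon structure divided the family by level. In 14 members an intron splits the stretch of the box shown above, and in 30 it lies in a single exon. The stretch was taken as the best match in each member: 43 of 44 match at least 6 of the 8 residues of the shared word, and Foxr1, counted among the 30, matches only 4. Of the 14 split genes, 12 had an FPKM of at least 1 in all 4 samples and 12 could be tested. None of the 12 reached a difference of 1 on the log2(FPKM + 1) scale, with absolute values from 0.01 to 0.89. The largest was that of Foxo1, which was still lower in the placodes by a 2.48-fold ratio of FPKM, so this limit depends on the pseudocount. Of the 30 unsplit genes, 6 had at least 1 FPKM in all samples, 9 could be tested and 5 were at 0 in all samples. Of the 9 tested, 4 passed 2-fold on the log2(FPKM + 1) scale (Foxb1, Foxe1, Foxc1 and Foxa1). Foxb1 and Foxe1 reached the mean of 1 needed for the test only through the group where they were high. Among weak genes this minimum favours those with large differences, so the shares past 2-fold cannot be compared between the classes. The median of the mean FPKM was 11.3 in the split and 0.494 in the unsplit class. The split members are those of the Foxj, Foxk, Foxm, Foxo and Foxp letters, so that the classes follow the letters and related genes are not independent of each other. This division was noticed after the values had been seen and is given as a description.

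**Figure D5:**
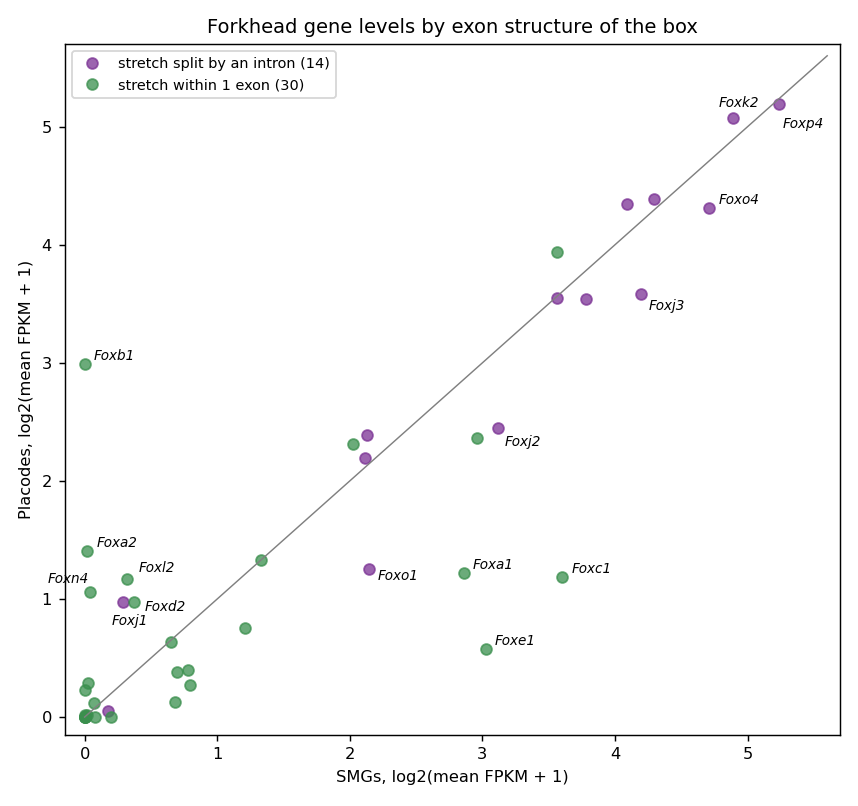
Mean expression of each Fox gene in the SMGs and the placodes, as log2(mean FPKM + 1), with the 14 members whose box stretch is split by an intron in purple and the other 30 in green. The line marks equal level, and Foxb1, Foxe1, Foxc1 and Foxa1, the members farthest from it, are green. No tested purple member differed by more than 0.89 on the log2(FPKM + 1) scale.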

How the data were processed

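The series holds 4 samples, 2 of day 10 placodes and 2 of E12.5 SMGs, which were assigned to their group by title. The authors aligned the read pairs using HISAT2 and deposited FPKM values per gene and sample. The version of HISAT2, the program that computed FPKM and the strandedness are not given in the sources used here. The submitters' processing notes list both GRCm38 and GRCh38, and since all 44 members were found by identifier in GENCODE M21, positions and sequences are those of GRCm38. No column of samples was left out (0).

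FPKM was transformed as log2(FPKM + 1), and limma 3.58.1 (R 4.3.3) was run on the features whose mean reached 1 (eBayes with trend, group as the only term, two-sided, Benjamini-Hochberg adjustment over 13193 features). Differences on this scale understate those of low genes. Errors of means are SDs over 2 samples. The procedure was tested on simulated data. Steps of FPKM times transcript length were used to estimate depth in genes with 1 transcript: 31.8 to 36.6% of low values lay within the tolerance of a whole step, where 10% would if values were spread evenly, so the estimate is approximate and no count test was run. Fragment numbers of single genes rest on it and carry counting error. Protein sequences were not compared here. Figures were drawn with Python 3.11.15.

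The members and the lists were chosen with earlier results of these data known. Every member could be named, but some genes and sequences that this would cover are not reported here. From each list, the tested genes with the highest and lowest difference, the gene with the highest mean FPKM and genes at 0 in a whole group could be named. The lists share genes (Twist1, for example, is in 3). Numbers shared by replicates do not pair the samples: deviations of same-numbered samples correlated at -0.035 over 13193 features. Alternatives were another pseudocount, 4 other scalings, no minimum or a minimum of 5, the replicate block, eBayes without trend, other detection levels and each sample left out.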

Additional observations from a re-analysis of the deposited data

How the results depend on the processing

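The 13 called Fox genes kept their direction in 165 of 165 alternatives and their call in 153, and 10 of them kept it in every alternative run. The 12 losses were those of Foxm1, Foxk2 and Foxo3 described above. Of 357 alternative counts, 337 stayed within 1.5 times. The count of 4 higher Fox genes became 7 with TPM, 7 with median-ratio scaling and 9 with no minimum, and ran from 2 (without placode sample 1) to 4 when single samples were left out. With no minimum, 3 Fox genes were at least 2-fold higher, and higher genes numbered 6 in the cilium list, 4 in the endoderm list, 7 in the V2 list, 2 in the neural crest list and 2 in the forebrain list. With a minimum of 5 FPKM, 0 Fox genes were at least 2-fold higher and 1 lower, since Foxb1, Foxe1 and Foxa1 were no longer tested; 0 cilium, 2 endoderm, 1 V2 and 0 forebrain genes were lower, and 0 forebrain and 1 facial mesenchyme genes higher. Detection in the placodes covered 32 members at 0.1 FPKM and 10 at 5 FPKM.

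Signs turned only for 3 genes near 0. Foxc2 (-0.0031) was at 0.034 with TPM, 0.033 with median-ratio scaling and 0.041 with quantile normalization, and from -0.051 to 0.044 with samples left out. Foxk1 (-0.014) was at 0.043, 0.041 and 0.020, and from -0.030 to 0.0025. Foxp4 (-0.046) was at 0.013 with TPM and 0.012 with median-ratio scaling. Scalings moved the median of all features from -0.05 to between -0.06 and 0.005. With the replicate number as a block, 4 Fox genes were higher and 10 lower, Foxf1 being added (adjusted p = 0.0207), and 10043 features were called in all; the samples share only a number, and the block changed no other call of a member. Depth limits the members below about 1 FPKM, where a value rests on few fragments.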

Other observations

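The SMG samples stood apart from each other in a few weak Fox genes of mesenchyme. Foxd1 was at 0.910 and 0.224 FPKM in SMG samples 1 and 2 (about 74 and 22 fragments), Foxd2 at 0.549 and 0.0361 (about 23 and 2) and Foxf2 at 1.06 and 0.413 (about 40 and 19). In the placodes the same genes were closer, at 0.515 and 0.585, 0.972 and 0.952, and 0.236 and 0.174 FPKM. Foxf1 ran the other way in the SMGs, at 0.994 and 1.64 (about 38 and 76 fragments), and also differed between the placode samples, at 0.492 and 0.876. Skeletal muscle markers summed to 179 FPKM in SMG sample 1 and 127 in SMG sample 2, against 2.94 and 2.59 in the placodes, while gland mesenchyme markers summed to 2169 and 2132 in the SMGs. These genes were picked after their values were seen, and the part of other tissue in their levels was not tested.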
